A study of Cucumis sativus with 12 samples.

Results

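Leaves of cucumber seedlings after 24 h of cold were compared with leaves after 3 h of cold. The comparison took 6 of the 12 libraries of the study: the 3 libraries labelled 24 h and the 3 labelled 3 h, chosen by their labels alone, across all genes of the deposited expression table. The seedlings were of the inbred line JinYan No. 4, and leaves were collected at an early true-leaf stage. Both groups had been moved to the same cold regime of 15 °C by day and 6 °C by night, with 12 h of each, so that no untreated plant enters the comparison. The other libraries, from leaves before the cold (0 h) and after 12 h, are used below only to place the levels in time and in the shared estimate of the spread. The study describes its replicates as biological. The sources used here state neither the hour of the day nor the temperature at sampling. The 24 h leaves come from the same hour of the day as the 0 h leaves and the 3 h leaves do not, so time in the cold, hour of the day, the light and temperature of that hour, and seedling age cannot be told apart.

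Cucumber comes from the tropics and is injured by chilling. Work on plants, mostly Arabidopsis, describes the cold response as a succession: calcium signals and transcription factors act within hours, and protective proteins, changed membranes and adjusted metabolism follow over days. Many of the same genes are also under the circadian clock, in which morning-expressed MYB factors and evening-expressed response regulators repress each other over the day.

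Expression is given in FPKM, a fragment count divided by the length of the transcript and by the size of the library, for 24317 genes. The sources used here give no read totals. Low FPKM values can be compared between libraries to read their relative depth, and against 3 h replicate 1, set to 1, this gave 0.963, 1.27 and 1.32 for 24 h replicates 1, 2 and 3, and 0.992 and 1.06 for 3 h replicates 2 and 3. Each value is the most common ratio of low values, shared by 13 to 27 of the 94 to 135 ratios of a library. Each of the 6 libraries had between 19035 and 19551 genes above 0, and its most abundant gene, a Rubisco small chain, took between 2.34% and 4.95% of the FPKM. Libraries of the same time correlated at r = 0.983 to 0.989 over the tested genes, and libraries of different times at 0.883 to 0.896. A principal component that separated the times took 85.1% of the variance. The next took 5.6% and separated 24 h replicate 2, at 33.3, from 24 h replicates 1 and 3, at -15.2 and -17.5. Counts and named genes that changed most without that library are given with and without it, as are those for 3 h replicate 2, which stood apart for a smaller set of genes described below.

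The test covered 17497 genes, those that reached 0.5 FPKM in 3 or more of the 12 libraries. Of these, 1373 were higher at 24 h than at 3 h (7.85%) and 2647 were lower (15.1%), at an adjusted p under 0.05 in limma with a log2 fold change of more than 1 in size. Fold changes are on the scale of log2(FPKM + 0.5), so the change of low genes is understated. The changes upward reached further than those downward: 46 genes had a log2 fold change above 4 and 14 above 5, against 25 genes below -4 and 3 below -5. The libraries of the 2 times did not overlap for 4091 genes that were higher at 24 h (23.4% of the tested genes) and for 8123 that were lower (46.4%). Over all tested genes the median was -0.22 on this scale. Dividing each library by its median ratio to the mean library moved this median to -0.003, and the calls were then 1828 higher and 1806 lower, so that 50.3% of the called genes were higher in place of 34.2%. Quantile normalization gave 1824 and 1780. The excess of lower genes therefore depends on the scaling, and the groups of genes below are read against the median and the shares of all tested genes. Genes beyond the extremes of each group are named to complete short counts or to show other members of a family, and were chosen after their values were seen.

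**Figure D1:**
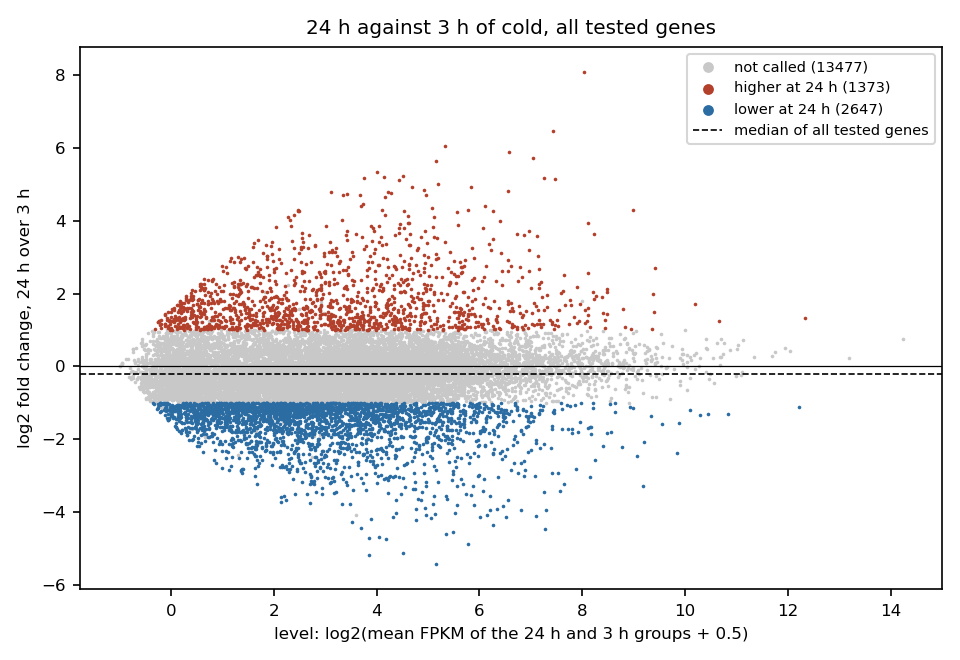
Each point is 1 of 17497 tested genes, with its mean level at 24 h and 3 h, as log2(FPKM + 0.5), on the x axis and its log2 fold change of 24 h over 3 h on the y axis. The 1373 called higher genes are red and the 2647 called lower genes blue; the dashed line is the median of all tested genes at -0.22, and the upward changes reach 8.10 while the downward ones end at -5.45.

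The genes with the highest fold changes were co-chaperones, clock-associated genes, a heat stress factor and F-box proteins. The highest was CsaV3_5G028590, annotated as a DnaJ homolog of subfamily B member 6, a co-chaperone that hands unfolded proteins to Hsp70. It had 452, 566 and 538 FPKM in the libraries of 24 h, against 1.37, 1.78 and 1.08 FPKM at 3 h (replicates 1, 2 and 3 in this order here and below). The log2 fold change was 8.10 ± 0.12 (SE, adjusted p = 6.44e-13). This gene was close to absent before the cold, with a mean of 0.096 FPKM at 0 h, and stood at 273 FPKM at 12 h. Another co-chaperone, the chloroplast dnaJ 11 CsaV3_2G015850, had 300, 167 and 306 FPKM at 24 h, against 4.38, 3.69 and 4.61 FPKM at 3 h (log2 fold change 5.72 ± 0.21). Its mean of 48.8 FPKM at 0 h was above those of 4.22 FPKM at 3 h and 3.61 FPKM at 12 h, and that at 24 h, 258 FPKM, was higher still.

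The response regulator CsaV3_5G000090, named for Arabidopsis APRR3, a pseudo-response regulator of the clock, had 333, 374 and 319 FPKM at 24 h, against 3.51, 2.82 and 3.78 FPKM at 3 h (log2 fold change 6.47 ± 0.10). Heat stress transcription factor A-6b (CsaV3_3G012910), an activator of chaperone genes, had 67.2, 66.2 and 74.1 FPKM at 24 h, against 0.881, 1.13 and 0.687 FPKM at 3 h (log2 fold change 5.65 ± 0.12). Adagio 3 (CsaV3_5G014370), known in Arabidopsis as the blue-light receptor FKF1, had 32.4, 38.0 and 31.7 FPKM at 24 h, against 0.328, 0.335 and 0.71 FPKM at 3 h (log2 fold change 5.19 ± 0.15). For each of these genes the lowest library at 24 h lay far above the highest at 3 h. An F-box protein similar to At1g60180 (CsaV3_6G038430), from the family that selects proteins for ubiquitination, averaged 79.0 ± 9.31 FPKM at 24 h and 0.683 ± 0.112 FPKM at 3 h (SD, n = 3 each), and with 9.86 FPKM at 12 h most of its level was reached after 12 h. The same late gain was seen in a gene annotated as subunit 7 of RNA polymerase V (CsaV3_3G012620), which averaged 296 ± 71.1 FPKM at 24 h and 7.58 ± 0.792 FPKM at 3 h and had 10.8 FPKM at 12 h. The F-box/LRR-repeat protein 14 CsaV3_7G032050, the calmodulin-binding IQ-DOMAIN 1 CsaV3_4G035750 and the BTB/POZ and TAZ domain protein CsaV3_1G009120 completed the 10 highest, with log2 fold changes of 5.17, 5.23 and 5.14, and these were at 23.9, 28.6 and 153 FPKM at 12 h already.

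**Figure D2:**
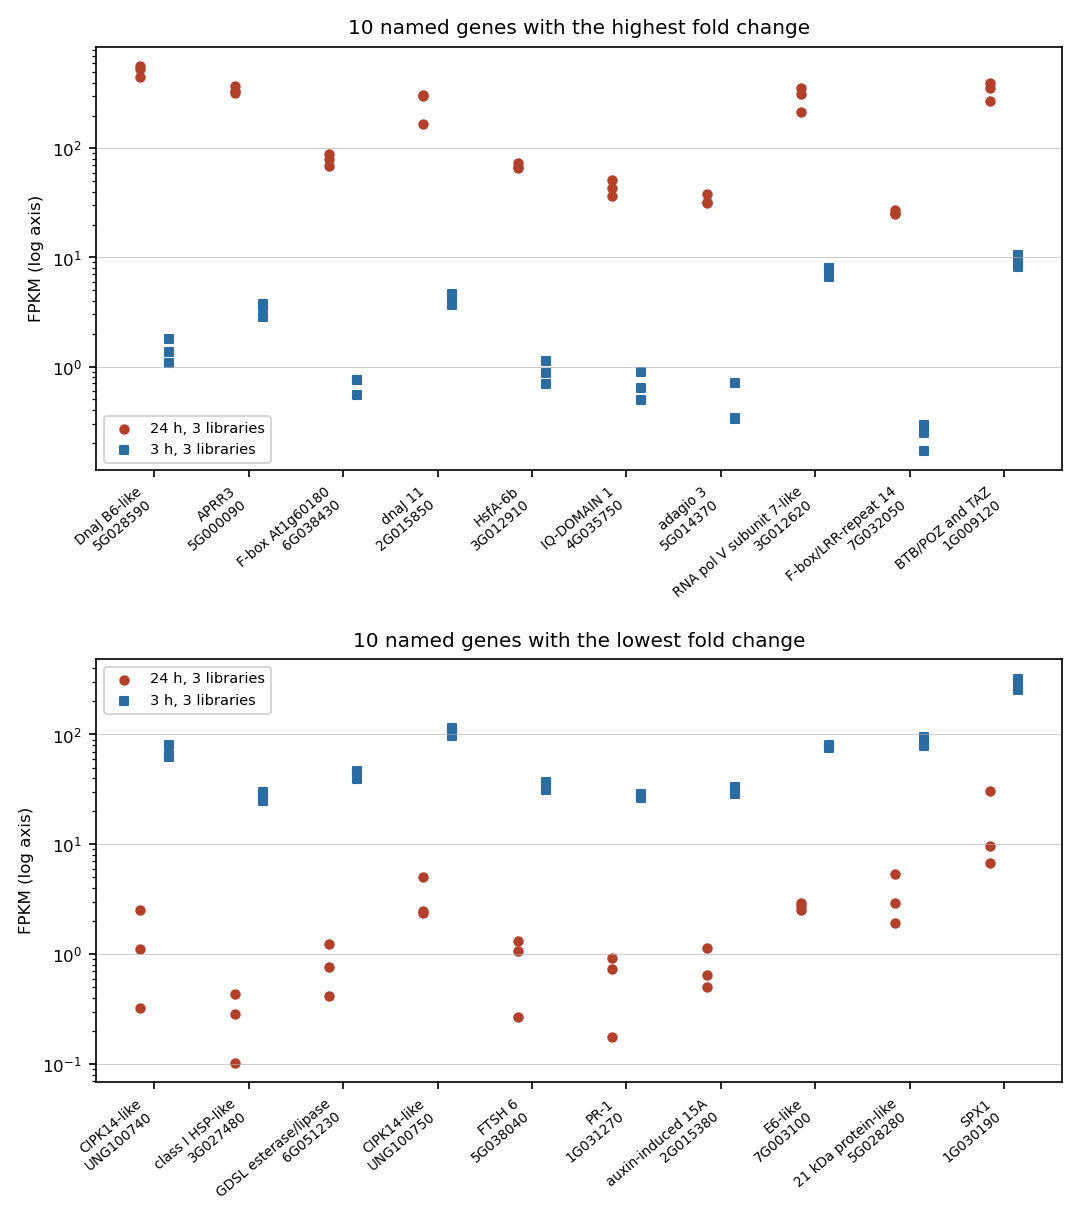
FPKM on a log axis in each library of 24 h (red circles, left) and 3 h (blue squares, right) for the 10 named genes with the highest and the 10 with the lowest fold change. No library of one time overlaps one of the other; SPX1, for example, is at 6.84 to 30.6 FPKM at 24 h and 254 to 323 FPKM at 3 h.

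Among the genes with the lowest fold changes were kinases that read calcium signals, a small heat shock protein, a chloroplast protease and a pathogenesis-related protein. A pair of genes annotated as CIPK 14, a kinase activated by calcineurin B-like calcium sensors, stood among them, of which CsaV3_UNG100740 had the lowest fold change of all. This gene had 0.323, 2.54 and 1.11 FPKM at 24 h, against 80.8, 64.7 and 62.4 FPKM at 3 h (log2 fold change -5.45 ± 0.35, adjusted p = 1.6e-07). CsaV3_UNG100750 had 2.49, 5.0 and 2.39 FPKM at 24 h, against 115, 104.7 and 97.7 FPKM at 3 h (log2 fold change -4.87 ± 0.19). Neither was low before the cold, with means of 64.6 and 157 FPKM at 0 h, and both were low at 12 h, with 6.70 and 12.5 FPKM. Their identifiers are neighbours and their annotation is the same, so reads of one may have been counted for the other.

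Some other genes on this side were high at 3 h and low both before the cold and a day into it. The class I small heat shock protein CsaV3_3G027480, a chaperone that holds unfolding proteins, had 0.284, 0.102 and 0.440 FPKM at 24 h, against 24.7, 29.7 and 28.4 FPKM at 3 h (log2 fold change -5.20 ± 0.25), and its mean at 0 h was 0.251 FPKM. FTSH 6 (CsaV3_5G038040), a protease of the chloroplast thylakoid, had 1.06, 0.267 and 1.31 FPKM at 24 h, against 31.2, 35.5 and 36.6 FPKM at 3 h (log2 fold change -4.75 ± 0.30), with 2.16 FPKM at 0 h. PR-1 (CsaV3_1G031270), a secreted protein of pathogen defence, had 0.921, 0.177 and 0.737 FPKM at 24 h, against 28.9, 26.9 and 26.2 FPKM at 3 h (log2 fold change -4.71 ± 0.22), with 2.52 FPKM at 0 h. The level at 3 h was thus a peak in these 3 genes. SPX domain protein 1 (CsaV3_1G030190), a sensor of phosphate status, showed the same course, with 9.71, 30.6 and 6.84 FPKM at 24 h, against 323, 254 and 309 FPKM at 3 h. Its log2 fold change was -4.47 ± 0.58, and -5.09 without 24 h replicate 2, and its mean was 4.50 FPKM at 0 h and 2.48 FPKM at 12 h. A GDSL esterase/lipase (CsaV3_6G051230) averaged 0.812 ± 0.417 FPKM at 24 h and 43.8 ± 3.71 FPKM at 3 h (SD, n = 3 each). Auxin-induced protein 15A (CsaV3_2G015380), E6-like CsaV3_7G003100 and the 21 kDa protein CsaV3_5G028280 had log2 fold changes of -4.69, -4.60 and -4.55.

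Among called genes, the greatest gains in absolute level were in ARG2 (CsaV3_7G029330) and the tonoplast water channel TIP1-1 (CsaV3_6G040100). The Rubisco small chain, the most abundant gene, was not called and is not ranked here. ARG2, an auxin-induced protein of the LEA type, had 7435, 6284 and 8358 FPKM at 24 h, against 2757, 2987 and 2973 FPKM at 3 h. TIP1-1 averaged 2270 ± 344 FPKM at 24 h and 955 ± 49.1 FPKM at 3 h (SD, n = 3 each). ARG2 had a log2 fold change of 1.33 ± 0.12, which was 0.77 and no longer called after quantile normalization. Hsp70 (CsaV3_4G024840) had 1688, 2123 and 1547 FPKM at 24 h, against 487, 544 and 585 FPKM at 3 h (log2 fold change 1.72 ± 0.11). Its course over 0, 3, 12 and 24 h was 43.1, 539, 1070 and 1790 FPKM. Thiamine thiazole synthase (CsaV3_3G005340), which makes the thiazole part of vitamin B1, had 908, 1114 and 854 FPKM at 24 h, against 46.6, 47.7 and 50.4 FPKM at 3 h (log2 fold change 4.29 ± 0.10, adjusted p = 2.2e-11), and was higher still at 12 h, with a mean of 2640 FPKM. A hypothetical protein (CsaV3_2G014690) made up the fifth, with means of 1190 and 181 FPKM at 24 h and 3 h.

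Among called genes, the greatest loss in level was in nonspecific lipid-transfer protein 1 (CsaV3_3G033150), a secreted carrier of lipids. It had 3198, 2470 and 3334 FPKM at 24 h, against 6860, 6603 and 5926 FPKM at 3 h. Its log2 fold change of -1.12 ± 0.12 lay near the threshold and fell short of it after median-ratio rescaling (-0.87) and without 24 h replicate 2 (-0.98). A cyanogenic beta-glucosidase (CsaV3_1G042490), of the enzymes that release defence compounds, had 454, 159 and 338 FPKM at 24 h, against 1529, 1484 and 1530 FPKM at 3 h (log2 fold change -2.38 ± 0.33), and 153 FPKM at 0 h. A pair of inositol-3-phosphate synthases (CsaV3_UNG190490 and CsaV3_4G004810), which start the synthesis of inositol, averaged 814 and 718 FPKM at 24 h, against 1990 and 1800 FPKM at 3 h. Their values moved in near parallel across all libraries, and reads of the copies may be shared between them. The hypothetical protein CsaV3_7G002920 averaged 1050 FPKM at 24 h and 2600 FPKM at 3 h.

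Genes of the circadian clock were the list with the highest share of higher calls. Of 18 tested members (of 26 listed), 7 were higher at 24 h (38.9%, against 7.85% of all tested genes) and 1 was lower, with a median log2 fold change of 0.22 against -0.22 for all tested genes. Besides APRR3 and adagio 3, the higher members were GIGANTEA-like, APRR7, APRR5, EARLY FLOWERING 3 and REVEILLE 6-like. GIGANTEA-like CsaV3_6G005020, a large protein that in Arabidopsis works with adagio 3 in the evening, had 220, 247 and 223 FPKM at 24 h, against 16.1, 16.8 and 18.0 FPKM at 3 h (log2 fold change 3.72 ± 0.06, adjusted p = 2.54e-12). The APRR7 gene CsaV3_4G024430 had 118, 127 and 116 FPKM at 24 h, against 34.1, 32.8 and 35.5 FPKM at 3 h (log2 fold change 1.80 ± 0.06). The single lower member was LHY-like CsaV3_6G008360, in Arabidopsis a morning MYB factor, with 166, 143 and 161 FPKM at 24 h, against 560, 541 and 580 FPKM at 3 h (log2 fold change -1.84 ± 0.07). The spread between libraries was small beside these differences.

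Copies of the same clock gene were not all called. The other APRR7 gene (CsaV3_5G000530) had 29.9, 34.6 and 36.4 FPKM at 24 h, against 52.5, 59.1 and 62.9 FPKM at 3 h, which was not called (log2 fold change -0.78). The other GIGANTEA gene (CsaV3_7G024490) had 19.0, 12.6 and 16.1 FPKM at 24 h, against 20.4, 19.3 and 24.6 FPKM at 3 h (log2 fold change -0.43, not called). Of the EARLY FLOWERING 3 genes, CsaV3_2G025750 had a log2 fold change of 1.69 and CsaV3_7G034990 one of -0.13, which was 0.11 after median-ratio rescaling and was called in neither case. Over 0, 3, 12 and 24 h, GIGANTEA-like CsaV3_6G005020 stood at 5.80, 17, 301 and 230 FPKM, APRR3 at 2.92, 3.37, 363 and 342 FPKM, and LHY-like at 667, 560, 236 and 157 FPKM. Leaves of 0 h and 24 h were taken a full day apart. Counts for this list were the same without 24 h replicate 2 and without 3 h replicate 2.

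**Figure D3:**
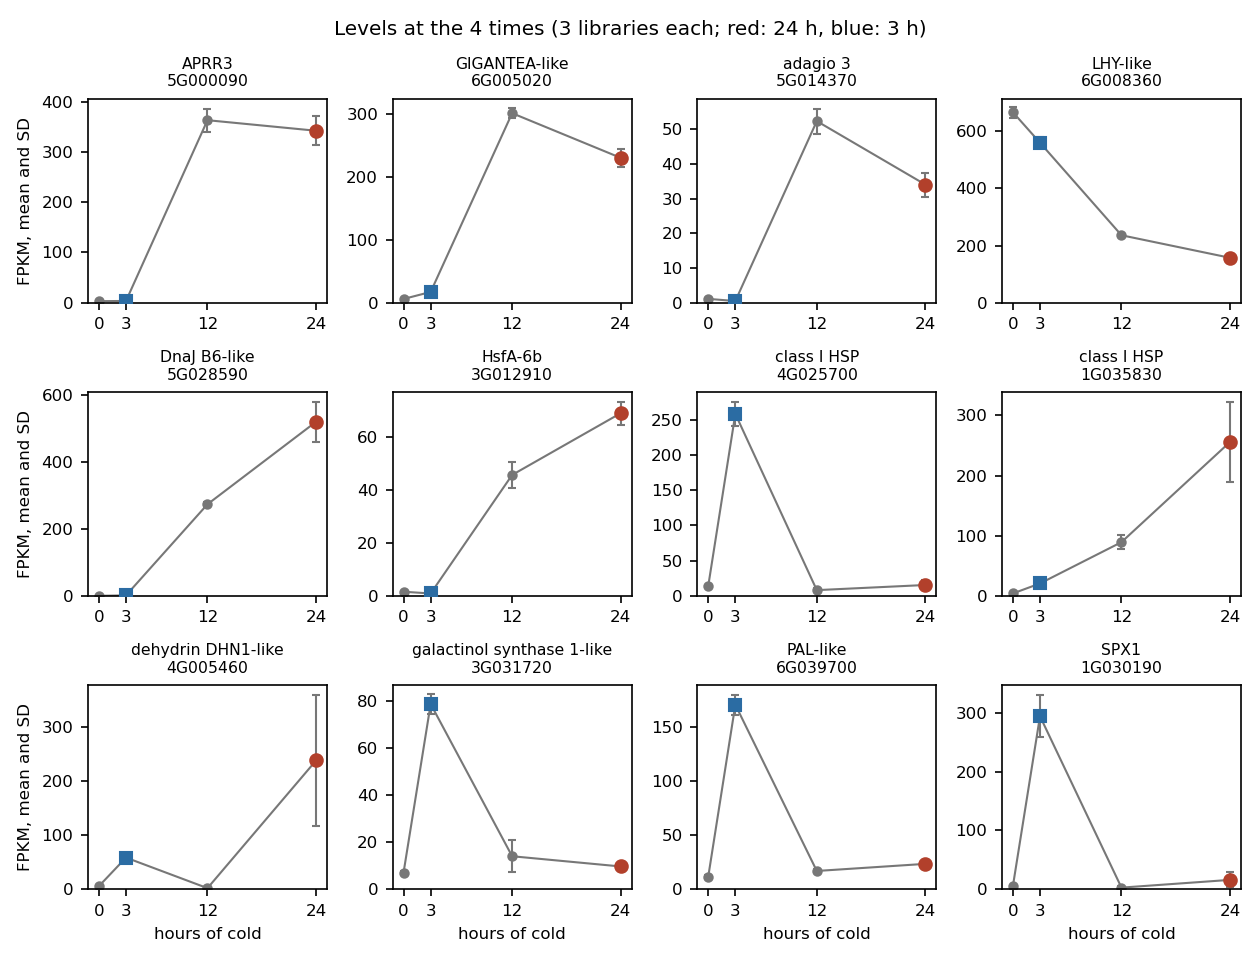
Mean FPKM with SD of 3 libraries at 0, 3, 12 and 24 h for 12 genes, with 24 h in red and 3 h in blue and hours of cold on the x axis. APRR3, GIGANTEA-like and adagio 3 are low at 3 h and high at 12 and 24 h; the class I HSP CsaV3_4G025700, galactinol synthase 1-like, PAL-like and SPX1 peak at 3 h.

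Among light signalling genes more were lower than higher, and most were not called. Of 33 tested CONSTANS-like, B-box and phytochrome genes, 9 were lower at 24 h (27.3%) and 1 was higher, with a median log2 fold change of -0.52. CONSTANS-LIKE 11 (CsaV3_2G035220), of the family that links day length to flowering, had 4.16, 2.76 and 4.0 FPKM at 24 h, against 51.6, 49.6 and 52.0 FPKM at 3 h (log2 fold change -3.66). The F-box protein associated with phytochrome A (CsaV3_4G000750) had a log2 fold change of -2.93. CONSTANS-LIKE 14 (CsaV3_4G002870) was the higher one, with 42.1, 37.4 and 39.7 FPKM at 24 h, against 6.62, 8.79 and 8.38 FPKM at 3 h. After median-ratio rescaling 3 members of the list were higher, and without 24 h replicate 3 there were 2.

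Chaperones differed by family. Of 62 tested heat shock proteins and heat stress factors, 25 were lower at 24 h (40.3%, against 15.1% of all tested genes) and 12 were higher (19.4%), with a median log2 fold change of -0.62. Small heat shock proteins, which keep unfolding proteins from clumping, and Hsp70 genes made up most of the lower ones. The class I protein CsaV3_4G025700 had 18.9, 7.78 and 19.5 FPKM at 24 h, against 238, 263 and 272 FPKM at 3 h (log2 fold change -4.13). The class I protein CsaV3_5G008760 had 70.2, 52.2 and 61.2 FPKM at 24 h, against 468, 507 and 536 FPKM at 3 h (log2 fold change -3.04). An Hsp70 (CsaV3_2G009170) had 2.23, 2.10 and 2.40 FPKM at 24 h, against 47.3, 52.1 and 53.6 FPKM at 3 h (log2 fold change -4.23). These 3 genes averaged 13.4, 57.6 and 2.39 FPKM at 0 h, near their levels at 24 h.

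The higher members were other chaperones and factors. The class I protein CsaV3_1G035830 had 266, 318 and 185 FPKM at 24 h, against 17.3, 24.7 and 19.8 FPKM at 3 h (log2 fold change 3.58 ± 0.19). The class V protein CsaV3_1G010860 had 69.8, 76.3 and 71.8 FPKM at 24 h, against 6.43, 7.32 and 5.24 FPKM at 3 h (log2 fold change 3.43). Small heat shock proteins of class I were thus found on both sides. Of the Hsp90 type, both genes annotated as heat shock cognate protein 80 were higher, CsaV3_1G038710 with 412, 582 and 417 FPKM at 24 h, against 121, 130 and 132 FPKM at 3 h, and CsaV3_1G038690 with a log2 fold change of 1.16. The neighbouring genes annotated as heat shock protein 83 lay apart, CsaV3_3G017490 at 1.95 and CsaV3_3G017480 at -2.11 on the log2 scale. Heat stress factors were called in both directions as well: A-6b, A-7a (CsaV3_2G001400), A-8 (CsaV3_5G014520), B-3-like CsaV3_3G040700 and C-1-like CsaV3_1G024170 were higher, whereas C-1 (CsaV3_2G002270), A-2 (CsaV3_2G025510) and B-4-like CsaV3_4G034470 were lower. The summed FPKM of the list averaged 2800 at 24 h and 3150 at 3 h. Neither this sum nor the counts of the list include the Hsp70 gene CsaV3_4G024840 named above. That gene was called higher and averaged 1790 FPKM at 24 h and 539 FPKM at 3 h, a gain larger than the fall in the sum. The direction of the sum therefore depends on leaving that gene out.

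DnaJ co-chaperones were more often higher than lower. Of 50 tested members, 8 were higher at 24 h (16%) and 3 lower (6.00%), and their summed level averaged 2880 FPKM at 24 h and 1430 FPKM at 3 h, to which the 2 leading genes above contributed most of the difference. The median log2 fold change was -0.08, above that of all tested genes, and 0.16 after median-ratio rescaling, so that its sign depends on the scaling. A further subfamily B gene (CsaV3_2G006870) had 146, 141 and 172 FPKM at 24 h, against 13.6, 25.0 and 14.5 FPKM at 3 h (log2 fold change 3.13). The lower members were subfamily C member 21-like CsaV3_7G029620 (log2 fold change -2.08), dnaJ 20-like CsaV3_7G006340 (-1.34) and mitochondrial dnaJ 1 CsaV3_1G004980 (-1.15).

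Genes in the list of cold regulators, which also takes in proteins named for their induction by cold, changed in both directions. Of 15 tested members (of 21 listed), 3 were higher, 2 lower and 10 not called, with a median log2 fold change of 0.12. A pair of DREB2A-like genes, factors that bind the dehydration-responsive element, rose together. CsaV3_4G026790 had 37, 43.2 and 48.1 FPKM at 24 h, against 6.89, 8.56 and 7.81 FPKM at 3 h (log2 fold change 2.39 ± 0.13), and CsaV3_4G026910 had 43.1, 50.5 and 54.8 FPKM at 24 h, against 8.77, 11 and 10.2 FPKM at 3 h (log2 fold change 2.25 ± 0.11). Their means over 0, 3, 12 and 24 h were 1.39, 7.75, 14.1 and 42.8 FPKM for the first and 2.46, 9.97, 18.5 and 49.4 FPKM for the second, and as likely copies of each other they may share reads. The low-temperature-induced cysteine proteinase CsaV3_4G034650 had 221, 271 and 210 FPKM at 24 h, against 96.4, 110.3 and 105.0 FPKM at 3 h (log2 fold change 1.16).

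ICE1 (CsaV3_3G027730), in Arabidopsis an inducer of the CBF cold factors, was lower, with 10.2, 8.80 and 10.1 FPKM at 24 h, against 47.8, 43.9 and 39.4 FPKM at 3 h (log2 fold change -2.12 ± 0.10), and the ICE1-like gene CsaV3_1G009900 had 17.6, 20.7 and 18.7 FPKM at 24 h, against 15.6, 14.3 and 15.1 FPKM at 3 h, which was not called. The low-temperature-induced 65 kDa protein CsaV3_3G049950 had a mean of 0.545 FPKM at 24 h and 3.96 FPKM at 3 h (log2 fold change -2.11). The 6 listed members that did not pass the filter were DREB genes with no value above 0.5 FPKM in the 6 libraries. Calls in this list were the same after median-ratio rescaling and quantile normalization.

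Genes for protective proteins and for the synthesis of sugars that accumulate in the cold were mostly not called. Of 11 tested LEA proteins and dehydrins, hydrophilic proteins that protect membranes and enzymes as water is lost, 2 were higher, 2 lower and 7 not called. The list does not hold ARG2 (CsaV3_7G029330), described above as of the LEA type, which is annotated by its induction by auxin. ARG2 was called higher, with means of 7360 FPKM at 24 h and 2910 FPKM at 3 h, though not after quantile normalization. Dehydrin DHN1-like CsaV3_4G005460 had 224, 124 and 366 FPKM at 24 h, against 49.2, 63.6 and 61.9 FPKM at 3 h (log2 fold change 1.9 ± 0.44, adjusted p = 0.00302). The libraries of the times did not overlap, but those of 24 h were spread widely, with replicate 2 lowest and replicate 3 highest. Its course was not steady, with means of 5.29 FPKM at 0 h and 1.70 FPKM at 12 h. LEA D-29 (CsaV3_3G015580) was higher, with means of 3.57 and 0.449 FPKM at 24 h and 3 h, while LEA D-34 genes CsaV3_3G013280 (3.94, 3.33 and 2.84 FPKM at 24 h, against 30.6, 33.7 and 34.3 FPKM at 3 h) and CsaV3_1G039680 were lower. Among 8 tested genes of galactinol and raffinose synthesis, galactinol synthase 1-like CsaV3_3G031720 was the single call, with 9.02, 8.89 and 11 FPKM at 24 h, against 81.0, 81.5 and 74.1 FPKM at 3 h (log2 fold change -2.97 ± 0.23), and 6.92 FPKM at 0 h.

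Calcium sensors and kinases were called at 11 higher (13.3%) and 15 lower (18.1%) of 83. In contrast to the CIPK 14-like pair, another CIPK (CsaV3_3G032810) was higher, with 21.9, 28.5 and 21.6 FPKM at 24 h, against 0.167, 0.659 and 0.547 FPKM at 3 h (log2 fold change 4.70), and so was the calmodulin-like protein CML44 (CsaV3_5G005810), with 6.53, 5.23 and 7.46 FPKM at 24 h, against 0, 0.724 and 0.337 FPKM at 3 h.

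Transcription factor families differed in direction. NAC factors, plant regulators of stress and senescence, were more often higher: 11 of 45 (24.4%) against 3 lower (6.67%), with a median log2 fold change of 0.25. NAC 21/22-like CsaV3_2G022180 had 35.1, 19.2 and 29.3 FPKM at 24 h, against 2.0, 2.28 and 3.14 FPKM at 3 h (log2 fold change 3.23). NAC 8-like CsaV3_6G050450 had 38.1, 29.4 and 55.9 FPKM at 24 h, against 0.527, 9.55 and 1.83 FPKM at 3 h. Its log2 fold change of 3.80 ± 0.69 was 4.70 without 3 h replicate 2 and 3.05 without 3 h replicate 1. The lower ones were NAC 55 (CsaV3_3G006790), NAC 90-like CsaV3_1G014920 and NAC 7-like CsaV3_6G046950, with log2 fold changes of -1.36, -1.75 and -1.22, and 5 were lower without 24 h replicate 3.

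The bHLH factors went the other way, with 20 of 75 lower (26.7%) and 3 higher (4.0%). bHLH35-like CsaV3_2G008770 had 7.98, 9.25 and 10.8 FPKM at 24 h, against 93.3, 92.8 and 90.1 FPKM at 3 h (log2 fold change -3.24), and bHLH118-like CsaV3_5G003410 had a log2 fold change of -3.69. bHLH130 (CsaV3_7G031270), PIF1-like CsaV3_3G028610 and bHLH87 (CsaV3_7G035000) were higher, by 2.03, 1.29 and 2.62 on the log2 scale. WRKY factors, known from defence, were called at 4 higher and 10 lower of 43, and MYB factors at 6 higher and 11 lower of 51, with 7 lower after median-ratio rescaling. WRKY 75 (CsaV3_4G003030) had 17.2, 11.4 and 18.8 FPKM at 24 h, against 0.505, 2.41 and 1.5 FPKM at 3 h, and WRKY 41 (CsaV3_4G006480) had 0.791, 0.425 and 1.11 FPKM at 24 h, against 10.5, 9.12 and 14.2 FPKM at 3 h. MYB44-like CsaV3_2G028170, in Arabidopsis a factor of abscisic acid responses, had 30.1, 38.4 and 27.8 FPKM at 24 h, against 0.945, 1.16 and 1.31 FPKM at 3 h (log2 fold change 4.31), and its mean at 12 h was still 1.33 FPKM. MYB-related protein 306 (CsaV3_1G005480) had a log2 fold change of -2.48.

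**Figure D4:**
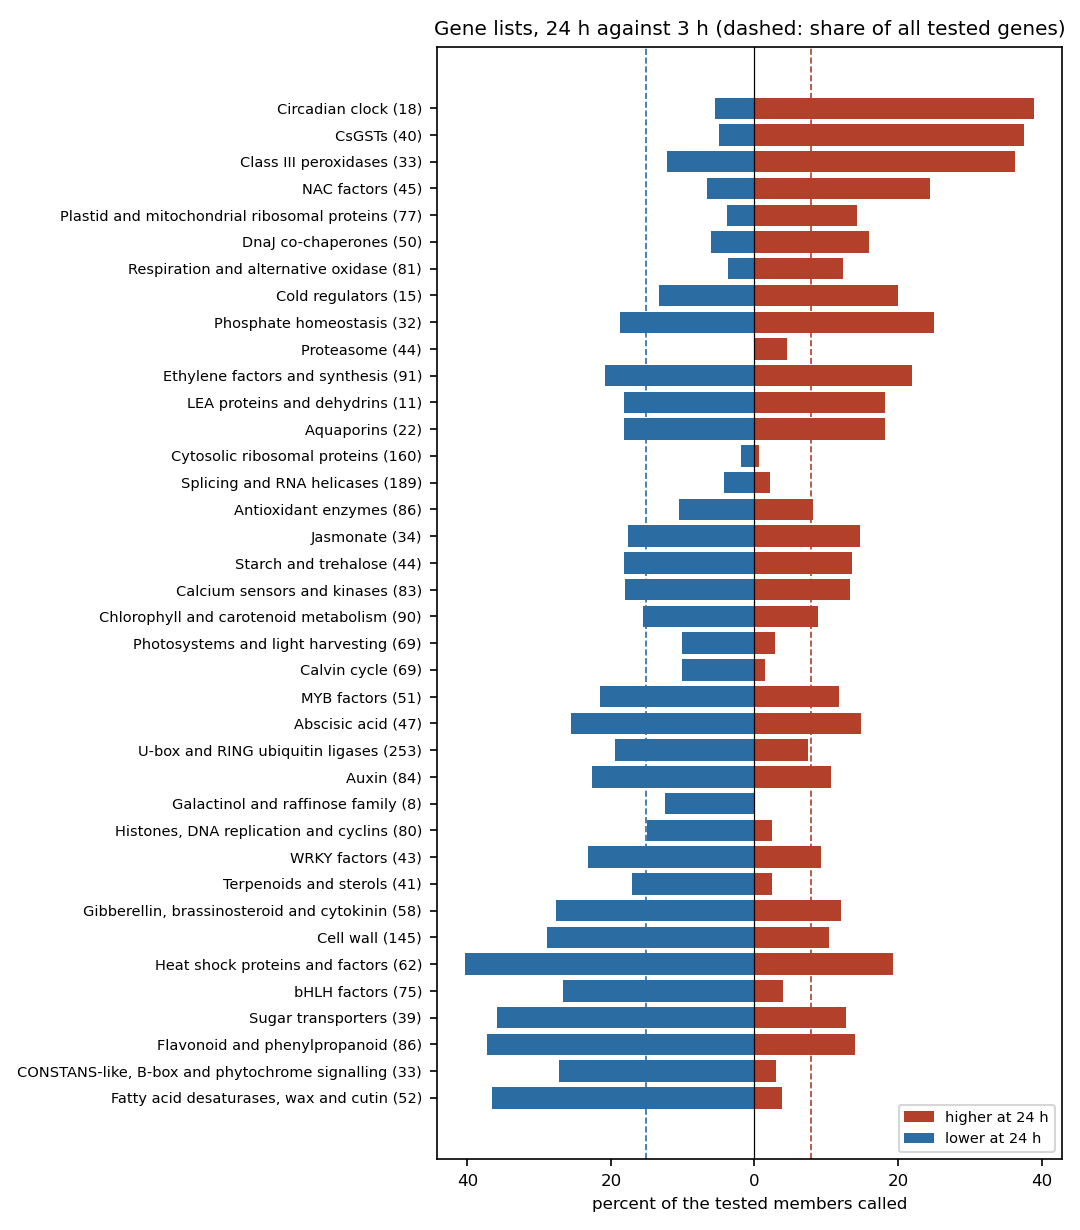
For 38 lists, the percent of tested members called higher (red, right of 0) and lower (blue, left of 0) at 24 h, with the number tested in brackets and the shares of all tested genes, 7.85% and 15.1%, as dashed lines. Clock genes, CsGSTs and class III peroxidases reach 38.9%, 37.5% and 36.4% higher; the lists of heat shock, phenylpropanoid, surface lipid and sugar transporter genes reach 40.3%, 37.2%, 36.5% and 35.9% lower.

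Ethylene factors and synthesis genes were called in both directions at shares above those of all tested genes, with 20 higher (22.0%) and 19 lower (20.9%) of 91, and 26 higher and 13 lower after median-ratio rescaling. Their median log2 fold change was -0.07, and 0.13 after that rescaling. The gene annotated as homolog 1 of ACC oxidase (CsaV3_3G012260) had 19.2, 28.2 and 43.8 FPKM at 24 h, against 0.913, 3.72 and 0.884 FPKM at 3 h (log2 fold change 3.86), with 3 h replicate 2 above the other 3 h libraries. The ethylene-responsive factor CRF2-like CsaV3_5G002210 had a log2 fold change of 3.71 and ERF043-like CsaV3_3G048560 one of -3.40. Without 24 h replicate 2 the list had 24 higher and 18 lower.

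Abscisic acid genes were called at 7 higher and 12 lower of 47, and at 10 and 9 after median-ratio rescaling. A 9-cis-epoxycarotenoid dioxygenase (CsaV3_1G032340), the enzyme that sets the rate of abscisic acid synthesis, had 8.78, 12.6 and 12.6 FPKM at 24 h, against 0.285, 0.996 and 0.263 FPKM at 3 h (log2 fold change 3.60 ± 0.29). Abscisic acid 8'-hydroxylase CsaV3_7G025110, which degrades the hormone, rose as well, with 11.6, 8.36 and 10.9 FPKM at 24 h, against 0.610, 1.66 and 0.963 FPKM at 3 h (log2 fold change 2.82). Other genes of the same 2 steps were lower: NCED1 (CsaV3_6G051790) had 0.879, 1.15 and 0.992 FPKM at 24 h, against 4.32, 4.88 and 3.88 FPKM at 3 h, and 8'-hydroxylase 4-like CsaV3_4G034320 had a log2 fold change of -2.88. Protein phosphatase 2C 75 (CsaV3_3G016530) and the kinase SRK2E-like CsaV3_2G014200, both of the signalling chain below the receptor, had log2 fold changes of -2.46 and -2.35.

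In the jasmonate list 5 were higher and 6 lower of 34, and 7 higher and 3 lower after median-ratio rescaling. 12-oxophytodienoate reductase 1 (CsaV3_2G033050) had 494, 491 and 473 FPKM at 24 h, against 118, 126 and 138 FPKM at 3 h (log2 fold change 1.93), whereas allene oxide synthase CsaV3_2G028330, an earlier enzyme of oxylipin synthesis, had a log2 fold change of -1.57. The other higher members were allene oxide cyclase 4-like CsaV3_5G039150, lipoxygenase 2-1-like CsaV3_4G023820, 12-oxophytodienoate reductase 2-like CsaV3_5G017240 and TIFY 9-like CsaV3_6G007840. Of 84 auxin genes, 19 were lower (22.6%) and 9 higher, and 14 and 13 after median-ratio rescaling. Of 58 gibberellin, brassinosteroid and cytokinin genes, 16 were lower (27.6%) and 7 higher, and 11 and 7 after that rescaling. DELLA protein GAI (CsaV3_1G031060), a repressor of gibberellin responses, had 0.802, 0.681 and 0.559 FPKM at 24 h, against 12.0, 12.0 and 13.1 FPKM at 3 h (log2 fold change -3.45), and BRI1 kinase inhibitor 1 (CsaV3_4G034230), a brake on brassinosteroid signalling, had a log2 fold change of -3.17. Both act against the growth hormones in whose list they stand. The cytokinin-activating enzyme CsaV3_4G035760 had 178, 146 and 174 FPKM at 24 h, against 18.4, 23.5 and 22.3 FPKM at 3 h.

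Glutathione S-transferases (CsGSTs), which join glutathione to oxidised or foreign compounds, were higher in 15 of 40 tested members (37.5%) and lower in 2 (5.0%), with 6 of the 46 family members below the filter. Their median log2 fold change was 0.19, with 15 higher after median-ratio rescaling. All but 1 of the higher genes were of the tau class; the other was CsGHR1 (CsaV3_1G046320). CsGSTU6 (CsaV3_4G025770) had 94.4, 110.4 and 123 FPKM at 24 h, against 1.24, 7.95 and 2.60 FPKM at 3 h (log2 fold change 4.93 ± 0.50). CsGSTU12 (CsaV3_4G025750) had 100.1, 68.3 and 98.4 FPKM at 24 h, against 3.03, 6.89 and 3.33 FPKM at 3 h (log2 fold change 4.25 ± 0.30). CsGSTU5 (CsaV3_4G025680), CsGSTU2 (CsaV3_4G025760) and CsGSTU11 (CsaV3_3G011460) followed with 4.11, 3.63 and 3.02. These 5 genes were all highest in replicate 2 among the 3 h libraries, where CsGSTU2 had 10.6 FPKM beside 1.30 and 1.83 FPKM in the others, and without that library the log2 fold changes of CsGSTU6 and CsGSTU2 were 5.55 and 4.44. The count for the family was then 14 higher and 1 lower.

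In absolute level CsGSTU20 (CsaV3_4G007720) was the most abundant at 24 h, with 629, 553 and 679 FPKM, against 291, 308 and 272 FPKM at 3 h (log2 fold change 1.09 ± 0.09). At 3 h CsEF1G1 (CsaV3_3G006520), which was not called, was above it, with a mean of 318 FPKM beside 290 FPKM. The lower genes were CsGSTF4 (CsaV3_7G029040) of the phi class, with 23.0, 28.5 and 21.9 FPKM at 24 h, against 73.5, 73.1 and 68.7 FPKM at 3 h (log2 fold change -1.54 ± 0.09), and CsTCHQD1 (CsaV3_4G028000), at a mean of 0.259 FPKM at 24 h and 1.1 FPKM at 3 h, which was not called after median-ratio rescaling or without 3 h replicate 2. Without 24 h replicate 3 or 3 h replicate 3 the family also had 1 lower member. CsDHAR1 (CsaV3_5G006680), a dehydroascorbate reductase that recycles vitamin C, had 114, 102 and 120 FPKM at 24 h, against 138, 140.4 and 136 FPKM at 3 h and was not called. Several tau genes lie close together by their identifiers and are similar in sequence, and the sources used here do not say how reads that match several of them were counted.

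**Figure D5:**
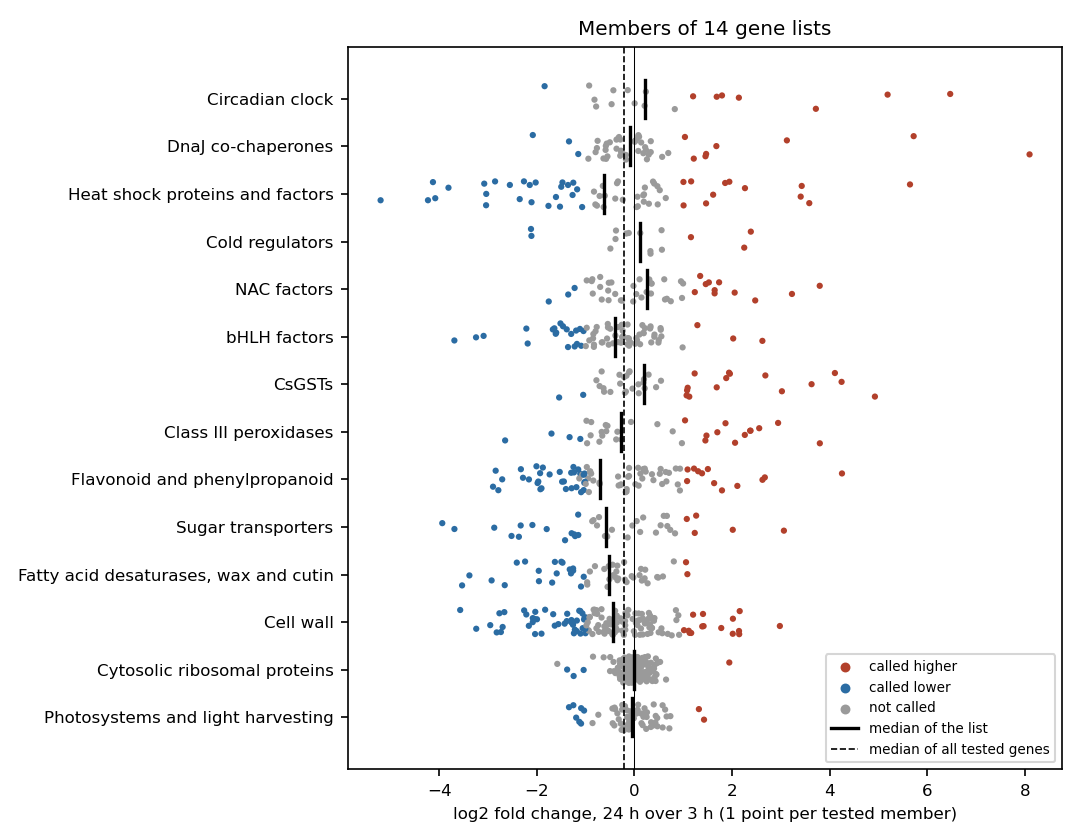
Log2 fold change of 24 h over 3 h for every tested member of 14 lists, 1 point per gene, red where called higher and blue where called lower, with the median of each list as a black bar and that of all tested genes, -0.22, as a dashed line. The heat shock list runs from -5.20 to 5.65 and the CsGSTs from -1.54 to 4.93, while 1 higher and 3 lower of 160 cytosolic ribosomal proteins were called.

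Class III peroxidases, secreted enzymes of the cell wall, were higher in 12 of 33 (36.4%) and lower in 4, and their summed level averaged 1420 FPKM at 24 h and 748 FPKM at 3 h. Peroxidase 2 (CsaV3_4G023610) had 163, 115 and 94.6 FPKM at 24 h, against 6.24, 7.89 and 11.2 FPKM at 3 h (log2 fold change 3.80). The median of the list was -0.26, below 0, and the members that were not called lay mostly on the lower side. Without 24 h replicate 1, 9 were lower. Antioxidant enzymes were called at 7 higher and 9 lower of 86, shares of 8.14% and 10.5%, and at 12 and 3 after median-ratio rescaling. Thioredoxin M3 of the chloroplast (CsaV3_7G008540) had 9.24, 8.73 and 8.15 FPKM at 24 h, against 0.124, 0 and 0 FPKM at 3 h, and glutaredoxin-S1-like CsaV3_7G028830 had a log2 fold change of 3.62. Glutaredoxin-C6 (CsaV3_4G035710) had 7.53, 11.3 and 7.38 FPKM at 24 h, against 82.3, 73.3 and 81.5 FPKM at 3 h (log2 fold change -3.13).

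Genes of respiration were called at 10 higher (12.3%) and 3 lower of 81, and at 14 and 3 without 24 h replicate 2. Alternative NAD(P)H dehydrogenases, which feed electrons to the respiratory chain without pumping protons, led the higher ones. The internal one (CsaV3_6G049800) had 22.2, 21.2 and 26.4 FPKM at 24 h, against 1.70, 7.61 and 2.54 FPKM at 3 h (log2 fold change 2.64), and the external one (CsaV3_1G011780) had a log2 fold change of 2.25. Most of the other higher ones were genes annotated as encoded in the mitochondrion, such as ATPase subunit 1 (CsaV3_UNG210320), with 5.63, 3.84 and 5.40 FPKM at 24 h, against 1.32, 0.704 and 0.480 FPKM at 3 h (log2 fold change 2.06). The lower ones were a COX assembly protein (CsaV3_UNG216460), germin-like CsaV3_5G018680 and cytochrome b-c1 subunit 9 (CsaV3_3G037270), the last of which was at -0.98 and not called without 3 h replicate 2.

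Transporters of sugars were more often lower. Of 39 tested, 14 were lower at 24 h (35.9%) and 5 higher, with a median log2 fold change of -0.57, and their summed level was 373 to 418 FPKM at 24 h and 1110 to 1170 FPKM at 3 h. SWEET2 (CsaV3_4G032810), which in Arabidopsis loads sugar into the vacuole, had 13.8, 11.1 and 14.2 FPKM at 24 h, against 182, 167 and 171 FPKM at 3 h (log2 fold change -3.69 ± 0.09). The polyol transporter 5-like CsaV3_2G014540 had 16.3, 22.5 and 17.7 FPKM at 24 h, against 301, 289 and 287 FPKM at 3 h (log2 fold change -3.94 ± 0.12). Both were high before the cold, at 332 and 277 FPKM. Of the higher ones, sugar transport protein 13-like CsaV3_6G038210 had 37.9, 24.1 and 55.0 FPKM at 24 h, against 3.42, 5.45 and 3.34 FPKM at 3 h (log2 fold change 3.07), and SWEET17 (CsaV3_3G014800) had a log2 fold change of 2.02; sugar transport protein 7 (CsaV3_1G028560), the sugar carrier CsaV3_6G049700 and SWEET16-like CsaV3_2G006660 rose by between 1.08 and 1.27 on the log2 scale, of which SWEET16-like was at 0.92 and not called without 3 h replicate 2.

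Starch and trehalose genes were called at 6 higher and 8 lower of 44, and at 8 and 7 after median-ratio rescaling. LSF1 (CsaV3_3G042460), a chloroplast protein of nightly starch breakdown in Arabidopsis, had 13.6, 16.9 and 14.9 FPKM at 24 h, against 1.04, 1.20 and 0.705 FPKM at 3 h (log2 fold change 3.41). The trehalose-phosphate phosphatases CsaV3_UNG213460 and CsaV3_4G004750, which remove the sugar signal trehalose 6-phosphate, had log2 fold changes of -2.47 and -2.40, and a gene of the trehalose-phosphate synthase family (CsaV3_5G031700) one of 2.60. These phosphatases have the same annotation and moved in near parallel, so reads may be shared between them. A phosphatase of another type, B-like CsaV3_3G022020, was higher, with a log2 fold change of 1.30.

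Few genes of the photosynthetic machinery were called. Photosystem and light-harvesting genes were called at 2 higher (2.90%) and 7 lower (10.1%) of 69, and 2 and 2 after median-ratio rescaling, and 4 were lower without 24 h replicate 3. Their median log2 fold change was -0.06, and 0.15 after that rescaling. Genes of carbon fixation were called at 1 higher and 7 lower of 69 with a median of 0.00, and at 4 and 3 after rescaling. The higher one was phosphoenolpyruvate carboxylase 4-like CsaV3_5G028880, whose log2 fold change was 0.98 and not called without 24 h replicate 2. Summed levels of the mesophyll markers, chlorophyll a-b binding proteins and Rubisco genes, were 50500, 65400 and 47900 FPKM at 24 h, against 42200, 38600 and 37500 FPKM at 3 h, so that 24 h replicate 2 stood apart here as well. These marker levels show leaf tissue in all libraries. The higher photosystem calls were an ATPase subunit 8 annotated as mitochondrial (CsaV3_UNG210380, log2 fold change 1.32) and an LHCII gene (CsaV3_1G032510), an antenna protein, which had 380, 797 and 404 FPKM at 24 h, against 218, 162 and 177 FPKM at 3 h. The log2 fold change of this LHCII gene, 1.43, was 1.09 without 24 h replicate 2.

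Genes of chlorophyll and carotenoid metabolism were called at 8 higher and 14 lower of 90, and at 11 and 6 after median-ratio rescaling. Genes of chlorophyll breakdown were among both. The chlorophyll b reductase NYC1 (CsaV3_1G024260) had 195.2, 176 and 203 FPKM at 24 h, against 32.8, 33.7 and 37.2 FPKM at 3 h (log2 fold change 2.45), and red chlorophyll catabolite reductase CsaV3_2G016730 had one of 2.51. STAY-GREEN-like CsaV3_5G003370, in Arabidopsis the enzyme that takes the magnesium from chlorophyll, had 9.78, 8.11 and 12.3 FPKM at 24 h, against 31.7, 33.8 and 35.2 FPKM at 3 h (log2 fold change -1.70). Of the chlorophyllases, CsaV3_2G013640 was higher by 2.03 on the log2 scale and CsaV3_5G025230 had a log2 fold change of -1.22.

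Genes of surface lipids and cell walls were more often lower than higher at 24 h. Of 52 tested genes of fatty acid desaturation, wax and cutin, 19 were lower (36.5%) and 2 higher, and of 32 epidermis and cuticle markers, some of which stand in both lists, 16 were lower (50%) and 2 higher. The median log2 fold change of the markers was -1.0, and -0.76 after median-ratio rescaling. 3-ketoacyl-CoA synthase 6 (CsaV3_5G034300), which lengthens fatty acids for wax, had 7.66, 7.97 and 10.1 FPKM at 24 h, against 107.7, 105.9 and 97.8 FPKM at 3 h (log2 fold change -3.53 ± 0.11). ECERIFERUM 1 (CsaV3_3G010300), of alkane synthesis, had 20, 17 and 19.2 FPKM at 24 h, against 76.9, 77.9 and 68.0 FPKM at 3 h (log2 fold change -1.96). Desaturases of chloroplast lipids, which set how fluid the photosynthetic membranes are, stood in the same list: the delta-7 desaturase CsaV3_4G001630 had 34.3, 46.3 and 36.9 FPKM at 24 h, against 314, 275 and 308 FPKM at 3 h (log2 fold change -2.93), and fatty acid desaturase 4 (CsaV3_3G005230) had a log2 fold change of -2.66. Both were high before the cold too, at 432 and 123 FPKM.

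The higher genes of the lipid list were a glycerol-3-phosphate acyltransferase (CsaV3_7G030150) and 3-ketoacyl-CoA synthase 7 (CsaV3_3G043140), with log2 fold changes of 1.09 and 1.06, of which neither was called without 24 h replicate 3 and 1 was without 3 h replicate 1. Summed epidermis and cuticle markers were at 3680, 2920 and 3860 FPKM at 24 h, against 7840, 7600 and 6840 FPKM at 3 h, mostly lipid-transfer protein 1. In these leaf samples fewer cells of a type and less RNA per cell cannot be told apart. Whether these markers had a part in the lipid and wall results was not tested. Without 24 h replicate 2 the markers had 4 higher and 13 lower, and without 24 h replicate 3 or 3 h replicate 1 they had 1 higher. A lipid-transfer protein among the markers (CsaV3_3G013110), which with 3-ketoacyl-CoA synthase 7 made up the higher ones, went the other way, with 46.5, 22.5 and 49.8 FPKM at 24 h, against 1.69, 3.19 and 2.86 FPKM at 3 h.

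In the cell wall list 42 of 145 were lower (29.0%) and 15 higher (10.3%), and 29 and 19 after median-ratio rescaling. Expansin-A8-like CsaV3_5G010900, a protein that loosens walls for growth, had 41.5, 40.8 and 31.3 FPKM at 24 h, against 326, 351 and 405 FPKM at 3 h (log2 fold change -3.24 ± 0.13). Pectate lyase 5 (CsaV3_1G009130), which cuts pectin, had a log2 fold change of -3.57, and a pectinesterase (CsaV3_7G033930) one of 2.98.

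Flavonoid and phenylpropanoid genes were lower in 32 of 86 (37.2%) and higher in 12 (14%), with a median log2 fold change of -0.71. After median-ratio rescaling 21 were lower and 16 higher. A phenylalanine ammonia-lyase (CsaV3_6G039700), the entry enzyme of the pathway, had 24.2, 22.8 and 23.3 FPKM at 24 h, against 160.4, 177 and 176 FPKM at 3 h (log2 fold change -2.84 ± 0.12), and 11.1 FPKM at 0 h, and a 4-coumarate--CoA ligase (CsaV3_7G031620) of a later step had a log2 fold change of -2.90. Caffeoylshikimate esterase-like CsaV3_1G010300, of lignin precursors, had 43.4, 36.7 and 50.3 FPKM at 24 h, against 1.84, 1.76 and 1.75 FPKM at 3 h (log2 fold change 4.25).

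Protein synthesis genes were rarely called in the cytosol and more often higher in the organelles. Cytosolic ribosomal proteins were called at 1 higher and 3 lower of 160, shares of 0.625% and 1.88%. The higher one was P0-like CsaV3_1G036120, listed at 0 in all 3 h libraries, and the lower ones were L3-2 (CsaV3_5G029770), S15a-2-like CsaV3_6G003760 and SA-like CsaV3_4G005150, of which the last had a log2 fold change of -0.67 and was not called without 24 h replicate 2. Plastid and mitochondrial ribosomal proteins were called at 11 higher (14.3%) and 3 lower of 77, with a median log2 fold change of 0.30 against -0.22 for all tested genes. Among the higher ones were genes encoded in the mitochondrion and chloroplast proteins encoded in the nucleus. L17 of the chloroplast (CsaV3_3G032940) had 363, 437 and 406 FPKM at 24 h, against 162, 154 and 138 FPKM at 3 h (log2 fold change 1.41). Among splicing genes and RNA helicases, called at 4 higher and 8 lower of 189, and at 10 and 5 after median-ratio rescaling, the chloroplast DEAD-box helicase 3 (CsaV3_1G038160) had 452, 483 and 475 FPKM at 24 h, against 79.1, 79.0 and 77.9 FPKM at 3 h (log2 fold change 2.57, adjusted p = 7.87e-12).

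Proteasome subunits were called at 2 higher and 0 lower of 44, the ATPase subunits CsaV3_2G002590 and CsaV3_6G013170 with log2 fold changes of 1.41 and 1.22, and 4 were higher after median-ratio rescaling. Ubiquitin ligases of the U-box and RING types were called at 19 higher (7.51%) and 49 lower (19.4%) of 253. PUB23-like CsaV3_3G038010, of a group that dampens stress and defence signals in Arabidopsis, had 5.73, 3.77 and 7.61 FPKM at 24 h, against 72.5, 80.1 and 73.5 FPKM at 3 h (log2 fold change -3.66), and stood at 2.04 FPKM at 0 h and 0.328 FPKM at 12 h. Histone, replication and cyclin genes were called at 2 higher (2.5%, against 7.85% of all tested genes) and 12 lower (15.0%, against 15.1%) of 80. The share of lower calls was thus that of all tested genes, and 7 were lower after median-ratio rescaling. Cyclin-D6-1 (CsaV3_6G012330) had 3.01, 4.76 and 2.52 FPKM at 24 h, against 31.6, 32.4 and 31.1 FPKM at 3 h (log2 fold change -3.08). PCNA-like CsaV3_5G008820 and cyclin-D3-3-like CsaV3_2G026460 were the higher ones, both below 5 FPKM.

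Phosphate genes were called at 8 higher (25.0%) and 6 lower (18.8%) of 32, and their summed level was 597 to 654 FPKM at 24 h and 1500 to 1610 FPKM at 3 h. The fall in that sum was carried by SPX1, by another gene annotated as SPX1 (CsaV3_2G002890, log2 fold change -1.74) and by a glycerol-3-phosphate transporter (CsaV3_5G005700), with 90, 80.6 and 89.9 FPKM at 24 h, against 536, 500 and 528 FPKM at 3 h (log2 fold change -2.58). PHO1 homolog 3-like CsaV3_5G033010, a phosphate exporter, went up, with 26.8, 30.2 and 33.3 FPKM at 24 h, against 5.47, 5.69 and 5.55 FPKM at 3 h (log2 fold change 2.33).

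Markers of other tissues were few and mostly not called. Xylem markers, laccases and cellulose synthases of secondary walls among them, summed to 14.2 to 18.2 FPKM at 24 h and 17.1 to 20 FPKM at 3 h, with 1 of 12 called, a xylem cysteine proteinase (CsaV3_4G037590) that was lower. Root markers, high-affinity nitrate transporters alone, had 3 tested members, of which CsaV3_1G013370 was lower, and 2 were without 24 h replicate 2 or 3 h replicate 3. Of 10 phloem markers 3 were higher, all phloem protein 2-like genes (CsaV3_1G046600, CsaV3_6G044280 and CsaV3_1G046440), and 1 was lower (CsaV3_4G035220). CsaV3_1G046600, a lectin of the A9 type, had 51.5, 51.4 and 62.2 FPKM at 24 h, against 12.4, 15.8 and 12.5 FPKM at 3 h. Pollen and flower markers were called at 1 higher and 1 lower of 15, the pollen allergen-like CsaV3_6G008470 and the AGL9-like gene CsaV3_5G032860. There were 2 higher without 24 h replicate 3 or 3 h replicate 2, and 2 lower without 24 h replicate 2 or 24 h replicate 3.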

How the data were processed

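The authors trimmed reads with cutadapt 1.9, checked them with FastQC and used HISAT2 for mapping, with Chinese Long V3 as the cucumber genome. The sources used here do not name the program that computed FPKM or say how reads that match several genes were handled. Values are FPKM as deposited by the authors, per gene and library, with 0.0001 standing for 0 and here set to 0. Deposited tables of pairs of times, with the authors' own fold changes, p-values and q-values, were not used. Genes that reached 0.5 FPKM in 3 or more of the 12 libraries were tested on log2(FPKM + 0.5) with limma 3.58.1 in R 4.3.3 (trend, robust), in 1 fit of all 12 libraries. A call needed a p under 0.05 after Benjamini-Hochberg adjustment over all tested genes, with a log2 fold change of more than 1 in size. Adjusted p-values are of this fit, and an exact permutation of 3 against 3 libraries could not go below p = 0.1. Code was tested on simulated data. Depth in reads is unknown, so no counting interval is given.

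The gene lists were made from words in the deposited gene descriptions or from deposited pathway annotations, except that the CsGSTs follow the family's published identifiers. The members and lists were chosen with earlier results of these data known. Named genes are the 10 highest and 10 lowest fold changes among called, described genes that did not overlap and averaged 5 FPKM or more in a group. Added to these are the 5 called genes each way with the largest difference of mean FPKM. The 2 highest and 2 lowest called members of each list that averaged 5 FPKM or more in a group are named too. The last are the 3 genes each way with the highest mean among those listed at 0 in the other group. Alternatives were the pseudocount, the filter, median-ratio and quantile scaling, the 6 libraries alone, a replicate block, each library left out, and other call rules. Gene positions and sequences were not used here.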

Additional observations from a re-analysis of the deposited data

How the results depend on the processing

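None of the 162 genes of the selection rule changed sign under the alternatives run. The counts of 1373 higher and 2647 lower genes became 3889 and 7710 by adjusted p alone, with no fold threshold, and 431 and 509 with a log2 fold change above 2 or below -2. They stayed within 1.5 times under the others: 1604 and 3303 with a pseudocount of 0.1, 1156 and 2082 with 1, 1416 and 2647 without a filter, 1292 and 2572 with a filter at 1 FPKM, 1368 and 2651 with the 6 libraries alone, and 1375 and 2656 with unadjusted p. Leaving out each library gave 1317 to 1461 higher and 2589 to 2723 lower. Of these genes, 149 kept call and direction under all alternatives run, and 13 lost the call under at least 1, in 25 cases. Of 1232 counts for lists, 84 moved by more than 1.5 times. Low values, where 1 read is a large step, limit the genes below about 1 FPKM.

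Replicate numbers of 24 h and 3 h did not pair the libraries: deviations of same-numbered libraries correlated at -0.014, -0.071 and -0.091. With the replicate number as a block 1366 genes were higher and 2649 lower, of which 1365 and 2646 were also called without it.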

Other observations

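Water channels were called at 4 higher and 4 lower of 22 tested. Besides TIP1-1 (CsaV3_6G040100), the higher ones were the tonoplast channel TIP2-2 (CsaV3_5G004290) and the plasma membrane channels PIP2-1-like CsaV3_6G039520 and PIP2-2-like CsaV3_6G039500, with log2 fold changes of 1.6, 1.09 and 1.05. The lower ones included NIP1-1 (CsaV3_6G051150) and NIP2-1-like CsaV3_3G041460, of a subfamily that also carries small solutes, with log2 fold changes of -2.13 and -1.99, beside TIP1-1-like CsaV3_3G036190 (-1.06) and TIP3-2 (CsaV3_1G007650, -1.05). Without 24 h replicate 2, 3 were higher and 2 lower, with PIP2-1-like at 0.80, TIP1-1-like at -0.81 and TIP3-2 at -0.96. Without 3 h replicate 2, 3 were higher and 4 lower, since PIP2-2-like had an adjusted p of 0.0763 in limma.

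Genes of terpenoid and sterol synthesis were called at 1 higher (2.44%, against 7.85% of all tested genes) and 7 lower (17.1%, against 15.1%) of 41. The share of lower calls was thus near that of all tested genes. Their median log2 fold change was -0.51 against -0.22 for all tested genes. Cucurbitadienol synthase (CsaV3_6G007580), the first enzyme of the bitter cucurbitacins, was lower, with a log2 fold change of -1.74. Methylsterol monooxygenase 2-2 (CsaV3_1G034570), of membrane sterol synthesis, had a log2 fold change of -2.30, which was -1.24 without 24 h replicate 2, where it is listed at 0. The higher one was a delta(24)-sterol reductase-like gene (CsaV3_7G030530), with a log2 fold change of 1.20.

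Some genes are listed at 0 in all libraries of one time and at 1 FPKM or more in all libraries of the other. There were 10 such genes at 0 at 3 h and 8 at 0 at 24 h. CsaV3_3G047500 had 11.2, 3.98 and 6.4 FPKM at 24 h and is listed at 0 at 3 h. CsaV3_UNG216460, annotated as a cytochrome c oxidase assembly protein, is listed at 0 at 24 h and had 2.93, 3.13 and 2.85 FPKM at 3 h, and endoglucanase 1 (CsaV3_3G000830), a cellulose-cutting enzyme, is listed at 0 at 24 h and had 2.79, 2.66 and 2.56 FPKM at 3 h.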
